A study of Homo sapiens with 6 samples.

Results

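The clustered histone genes are the replication-dependent genes for the linker histone H1 and the core histones H2A, H2B, H3 and H4 that sit together in the HIST1 to HIST4 groups of the human genome. They were taken from the array annotation as every gene symbol that carries a HIST1 to HIST4 name, or the newer H1, H2AC, H2BC, H3C or H4C name, and does not end in P or PS with or without a digit. This gave 72 of 81496 gene symbols, after 10 symbols with a pseudogene ending had been dropped. There were 6 genes of class H1, 16 of H2A, 22 of H2B, 13 of H3 and 15 of H4. By cluster, 52 lay in HIST1 on chromosome 6, 15 in HIST2 and 4 in HIST3 on chromosome 1, and 1 was HIST4H4 on chromosome 12. RefSeq lists 66 of them as protein coding and 6 as pseudogenes, namely HIST2H2BA, HIST2H2BB, HIST2H2BC, HIST2H2BD, HIST2H3DP1 and HIST3H2BA.

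Cells make most of their histone protein while they copy their DNA, and transcription of the clustered genes is switched on at the start of S phase by cyclin E and CDK2 acting on the coactivator NPAT. The main transcripts of these genes end in a stem-loop rather than a poly(A) tail, are bound there by SLBP and are destroyed quickly when replication stops. A subset of the genes can also give polyadenylated transcripts, which are known from cells that leave the cycle or differentiate. A few members are known as testis genes, which package chromatin in the male germ line.

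Gene expression was compared between MCF10.AT1, the preneoplastic step in the MCF10A breast epithelial series, which carries an activated HRAS gene and is sensitive to fluvastatin, and MCF10.AT1-R, a resistant line raised from it in fluvastatin stepped up from 1 to 5 and 20 µM. Fluvastatin is a statin, an inhibitor of HMG-CoA reductase in the pathway to cholesterol. The MCF10.AT1 cells were labelled untreated. Whether MCF10.AT1-R cells held the drug at harvest, and whether they were a pool or a clone, is not given in the sources used here. Each line had 3 arrays of total RNA, named biological replicates in the labels, and no statement says that they came from separate cultures, so p-values measure only the spread between these arrays. A01, A02 and A03 were of MCF10.AT1, and B02, B03 and B04 of MCF10.AT1-R. A03, which the study left out as an outlier, is described on its own at the end, and the 5 other arrays carry the comparison. Every value is a log2 RMA value, the normalized brightness of a probe set on a log2 scale, and every difference is MCF10.AT1-R minus MCF10.AT1. Values of different genes come from different probes and are not set against each other.

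The labels give the cell type as breast cancer, although the parental line is preneoplastic, and a list of 12 genes for basal breast epithelium was read. The list holds HRAS, the gene that the line carries in activated form, which is not a cell type marker. The other genes are not particular to the breast, so a breast origin was not tested. All 12 genes lay above the negative control probe sets on each of the 5 arrays, while PTPRC of leukocytes and KDR of endothelium lay within them. The lines differed in these genes: 7 of the 12 rose in MCF10.AT1-R in the limma fit at FDR 5%, where 0.758% of the 51457 tested probe sets rose. KRT5, KRT14, KRT17 and TP63 were among the 7. Of the 12 genes, 11 were higher and 1, HRAS, was lower. HRAS read 8.70 and 8.66 in MCF10.AT1 and 7.77, 7.91 and 7.98 in MCF10.AT1-R, a difference of -0.79. Its adjusted p in limma was 0.32, and 2.3e-07 with the trend option described below. The mean log2 value of the 12 genes, with HRAS counted, was 7.23 and 7.16 on A01 and A02 and between 8.50 and 8.57 on the resistant arrays. Among markers of cornifying keratinocytes KRT1 and CDSN rose, while FLG lay within the negative controls on all 5 arrays and LOR above them on a single array. DCN of fibroblasts, CD14 of myeloid cells and PECAM1 of endothelium fell. The part of these shifts in the histone values was not tested, and in RNA of whole cultures fewer cells of a type and less RNA per cell cannot be told apart.

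The sequences before the start sites of 6 members are shown because these genes carry the results that follow: HIST1H2BM fell and HIST1H2BH, HIST2H2AB and HIST1H4E were lower in MCF10.AT1-R, and HIST2H2AA3 and HIST1H2BD were higher. Each is the 250 bases before the transcription start, written 5′ to 3′ on the strand of the gene, from RefSeq on GRCh38.p14. HIST1H2BM is at chr6:27814772-27815021 on the plus strand and HIST1H2BH at chr6:26251364-26251613 on the plus strand. HIST2H2AB is at chr1:149887966-149888215 on the minus strand and HIST1H4E at chr6:26204360-26204609 on the plus strand. HIST2H2AA3 is at chr1:149842751-149843000 on the minus strand and HIST1H2BD at chr6:26157871-26158120 on the plus strand. Capitals mark, on either strand, the octamer ATTTGCAT that OCT1 recognizes, the CCAAT box CCAAT, the TATA box TATAAA and GGTCCG, the core of the H4 site that HINFP recognizes. HIST1H2BD has a second annotated start, which is not shown. Matches of different motifs that overlap were counted for each, and a match describes the letters, not a bound site.
HIST1H2BM: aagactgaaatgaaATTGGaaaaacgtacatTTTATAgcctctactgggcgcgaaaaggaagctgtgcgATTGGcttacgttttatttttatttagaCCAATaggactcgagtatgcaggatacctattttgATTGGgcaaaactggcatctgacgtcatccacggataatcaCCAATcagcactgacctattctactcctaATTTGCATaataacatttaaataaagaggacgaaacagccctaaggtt
HIST1H2BH: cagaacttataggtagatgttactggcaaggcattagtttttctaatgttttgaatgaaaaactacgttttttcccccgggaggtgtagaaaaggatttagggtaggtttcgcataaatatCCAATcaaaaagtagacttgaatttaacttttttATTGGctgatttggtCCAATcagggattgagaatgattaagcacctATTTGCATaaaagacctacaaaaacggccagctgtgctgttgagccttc
HIST2H2AB: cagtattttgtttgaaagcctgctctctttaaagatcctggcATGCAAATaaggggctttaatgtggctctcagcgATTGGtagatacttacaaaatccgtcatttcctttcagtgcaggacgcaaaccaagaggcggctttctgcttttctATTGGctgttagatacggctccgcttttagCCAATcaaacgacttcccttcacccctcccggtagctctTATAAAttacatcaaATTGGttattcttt
HIST1H4E: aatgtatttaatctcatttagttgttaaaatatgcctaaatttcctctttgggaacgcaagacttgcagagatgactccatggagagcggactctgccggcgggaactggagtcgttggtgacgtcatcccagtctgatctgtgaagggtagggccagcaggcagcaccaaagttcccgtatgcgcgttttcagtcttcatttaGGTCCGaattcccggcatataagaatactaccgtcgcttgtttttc
HIST2H2AA3: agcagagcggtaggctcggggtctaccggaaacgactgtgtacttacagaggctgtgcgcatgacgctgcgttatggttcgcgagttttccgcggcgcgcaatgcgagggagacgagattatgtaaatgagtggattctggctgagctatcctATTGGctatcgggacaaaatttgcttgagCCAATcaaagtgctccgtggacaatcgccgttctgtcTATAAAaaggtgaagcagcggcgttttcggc
HIST1H2BD: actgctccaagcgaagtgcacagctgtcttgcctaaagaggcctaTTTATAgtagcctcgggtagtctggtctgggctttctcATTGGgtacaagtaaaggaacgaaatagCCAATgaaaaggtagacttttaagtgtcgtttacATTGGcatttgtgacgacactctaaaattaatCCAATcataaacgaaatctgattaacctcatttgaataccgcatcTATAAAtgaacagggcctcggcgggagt

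Windows of this kind were at hand for 62 members. The octamer stood in 25 of them, namely in 14 of 17 H2B genes, 10 of 15 H2A genes, 1 of 11 H3 genes and none of the H1 or H4 genes, against 2.03% of all 27305 genes with a window. The CCAAT box stood in every H1, H2A, H2B and H3 window and in 3 of 13 H4 windows, 52 in all, against 37.0% of all genes. TATAAA stood in 43 windows, against 13% of all genes. GGTCCG stood in 12 of 13 H4 windows and in 15 windows in all, against 11.3% of all genes. In 10 pairs of members the starts lie 215 to 248 bases apart on opposite strands. Their windows overlap almost fully, so 1 match can be counted for both genes. The single H3 gene with the octamer, HIST1H3D, is paired in this way with HIST1H2BF, which has it too. In the sequences above the octamer is seen in HIST1H2BM, HIST1H2BH and HIST2H2AB and not in HIST2H2AA3 or HIST1H2BD. HIST1H2BM has its only TATA match, read on the other strand, with its first base 219 bases before the start, whereas those of HIST2H2AB and HIST2H2AA3 begin 29 and 31 bases before it. The match in the HIST1H2BM window lies near the start of HIST1H2AJ, which is 245 bases away and is read on that other strand.

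The clustered histone genes were lower in the resistant line as a set. Of the 72 genes 62 were lower and 10 higher in MCF10.AT1-R, and the median difference was -0.32, which is 1.25-fold lower. Among the 58 genes above the negative controls on all 5 arrays the differences ran from -1.27 for HIST1H2BM, an H2B gene, to 0.71 for HIST2H2AA3, an H2A gene. The median over all 135750 transcript probe sets was 0.01 and 48.5% of them were lower, and over the 11790 probe sets above the median level of the histone genes (5.18) the median was 0.00 and 49.1% were lower. The mean log2 value over the 72 genes was 5.87 on A01 and 5.91 on A02, and 5.68, 5.55 and 5.63 on B02, B03 and B04. For MCF10.AT1 this is 5.89 ± 0.03 (SD, n = 2). For MCF10.AT1-R it is 5.62 ± 0.07 (SD, n = 3), and every resistant array lay below both parental ones.

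Gene by gene, all 3 resistant arrays lay below both MCF10.AT1 arrays for 45 of the 72, against 11.1% of all transcript probe sets and 18.9% of those above the median level of the histone genes. They lay above for 7 genes, against 12.2% and 22.6%. The arrays overlapped for the remaining 20. Of the 58 genes above the negative controls, 49 were lower and the median was -0.33. The shift was small beside the error of the fit: limma gave every difference a standard error of 0.31, from a common SD of 0.34, while the SD of the arrays of a line had a median over the histone genes of 0.12 for the parental line and 0.14 for the resistant line.

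**Figure D1:**
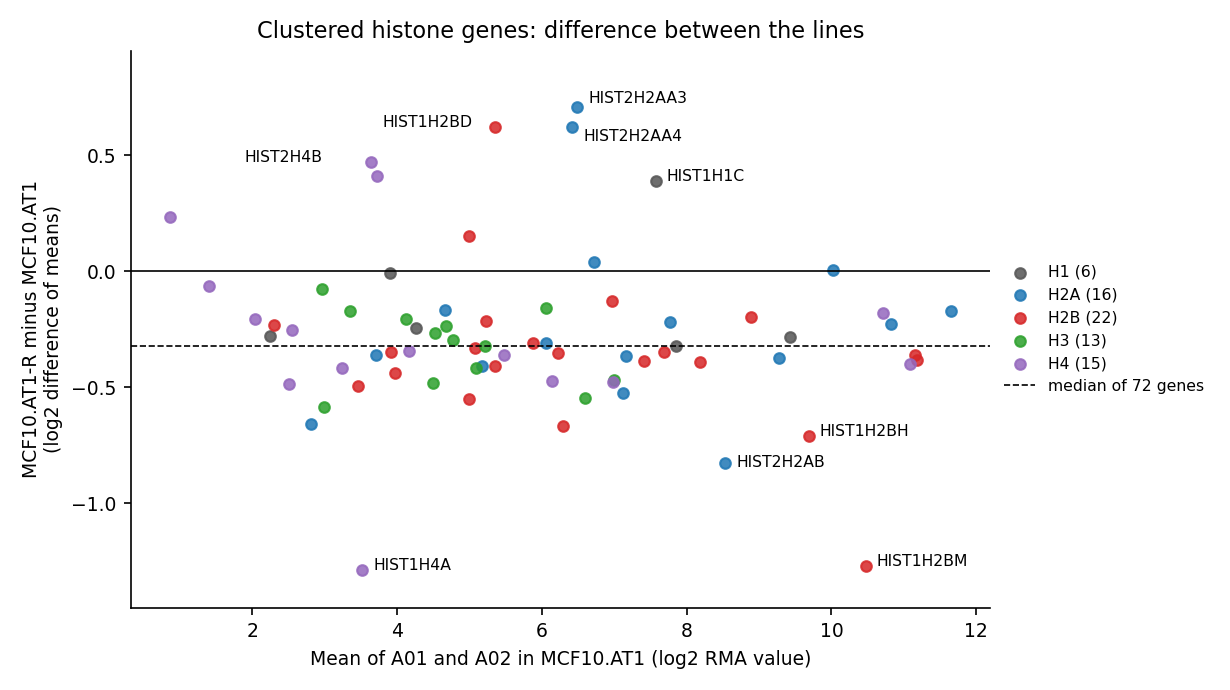
Difference between the lines (MCF10.AT1-R minus MCF10.AT1, log2, vertical) against the mean of A01 and A02 (log2 RMA value, horizontal) for the 72 clustered histone genes, 1 point per gene, coloured by histone class. The dashed line is the median of -0.32, and 62 points lie below 0.

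Of the 72 genes 70 passed the low-expression filter, which HIST1H4G and HIST1H4L did not, and 56 also passed the filter on invariant probe sets and were tested. In the limma fit at FDR 5%, HIST1H2BM and HIST1H4A fell, so 2 of 56, where 0.447% of tested probe sets fell, and no histone gene rose, where 0.758% did. At an unadjusted p under 0.05, 6 histone genes were lower and 3 higher. These 9 are 16.1% of the 56, where 8.26% of all tested probe sets, 2199 lower and 2050 higher, and 14.0% of those above the median level of the histone genes were under 0.05. With limma's trend option, which lets the error depend on the level, 8 fell and 2 rose, where 0.981% of tested probe sets fell and 1.69% rose. The 8 were HIST1H2AL, HIST1H2BH, HIST1H2BM, HIST1H4A, HIST1H4E, HIST2H2AB, HIST2H2BB and HIST2H2BF, and the 2 were HIST2H2AA3 and HIST2H2AA4. The smallest difference that passed without the trend was 1.07, well above the shift of most histone genes. Without A01, and likewise without A02, neither HIST1H2BM nor HIST1H4A passed in limma, with adjusted p values of 0.14 and 0.32 without A01 and 0.21 and 0.070 without A02. A single MCF10.AT1 array is then left, which is assumed to vary like the resistant ones, and the differences stayed at -1.30 and -1.24 for HIST1H2BM and -1.14 and -1.44 for HIST1H4A. Without any filter on probe sets neither passed, at 0.058 and 0.090.

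HIST1H2BM encodes an H2B protein, which pairs with H2A in the nucleosome core. It read 10.45 and 10.51 on the MCF10.AT1 arrays and 9.20, 9.24 and 9.18 on the resistant arrays. Both lines were tight and far apart, and the gene fell by 1.27 on the log2 scale, 2.41-fold, with an adjusted p of 0.0067 in limma. Its bidirectional partner HIST1H2AJ, an H2A gene whose start lies 245 bases away on the other strand, read 10.77 and 10.87 in MCF10.AT1 and 10.68, 10.42 and 10.68 in MCF10.AT1-R. HIST1H2AJ was thus also lower on every resistant array, by a difference of -0.23, but it did not pass the filter on invariant probe sets.

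HIST1H4A encodes histone H4, whose genes all give the same protein or nearly so. It read 3.67 and 3.37 in MCF10.AT1 and 2.38, 2.16 and 2.15 in MCF10.AT1-R. The gene fell, with a measured difference of -1.29 and an adjusted p of 0.0056 in limma. The resistant arrays all lay within the negative controls, so that only a bound is known there. Against a floor of 2.99, the mean of the 95th percentiles of the negative controls, HIST1H4A was at least 1.44-fold lower in MCF10.AT1-R. With all values below this floor raised to it, the difference was -0.53 and no longer passed.

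HIST2H2AB, an H2A gene of the HIST2 cluster, read 8.53 and 8.54 in MCF10.AT1 and 7.87, 7.59 and 7.67 in MCF10.AT1-R. The lines were well apart, with a difference of -0.82 and an adjusted p of 0.27 in limma that became 2.7e-07 with the trend. HIST1H2BH, an H2B gene, read 9.77 and 9.61 against 8.99, 9.03 and 8.92. This difference of -0.71 had an adjusted p of 0.44 in limma and 1.1e-10 with the trend. HIST1H2BF, another H2B gene, read 6.32 and 6.26 against 5.75, 5.59 and 5.53, a difference of -0.67 with an adjusted p of 0.51 in limma and 0.090 with the trend. None of these 3 genes had arrays of the lines that overlapped.

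Other members had smaller gaps with very little scatter. HIST1H4E read 11.07 and 11.11 in MCF10.AT1 and 10.68, 10.67 and 10.72 in MCF10.AT1-R, a difference of -0.40. HIST2H2BF read 11.12 and 11.18 against 10.82, 10.75 and 10.79, a difference of -0.36. Both are core histone genes that fell only with the trend, at adjusted p values in limma of 1.6e-08 and 2.6e-07, and their adjusted p was 0.81 and 0.83 without it. With the trend the error follows the level, so these p values are not a measure of the scatter of a gene's own arrays. At a similar level, HIST2H2BB had a wider SD over A01 and A02, 0.16 against 0.04 for HIST2H2BF. Its difference was -0.38, and its adjusted p in limma with the trend was 2.9e-08. HIST1H2AG, an H2A gene, read 11.68 and 11.63 against 11.54, 11.38 and 11.53, a difference of -0.17. The resistant arrays again lay below the others, but it varied too little to be tested. HIST2H2AC, the H2A gene of the HIST2 cluster that shares its upstream region with HIST2H2BE, lay between 9.99 and 10.11 on all 5 arrays, and its lines overlapped around a difference of 0.01.

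**Figure D2:**
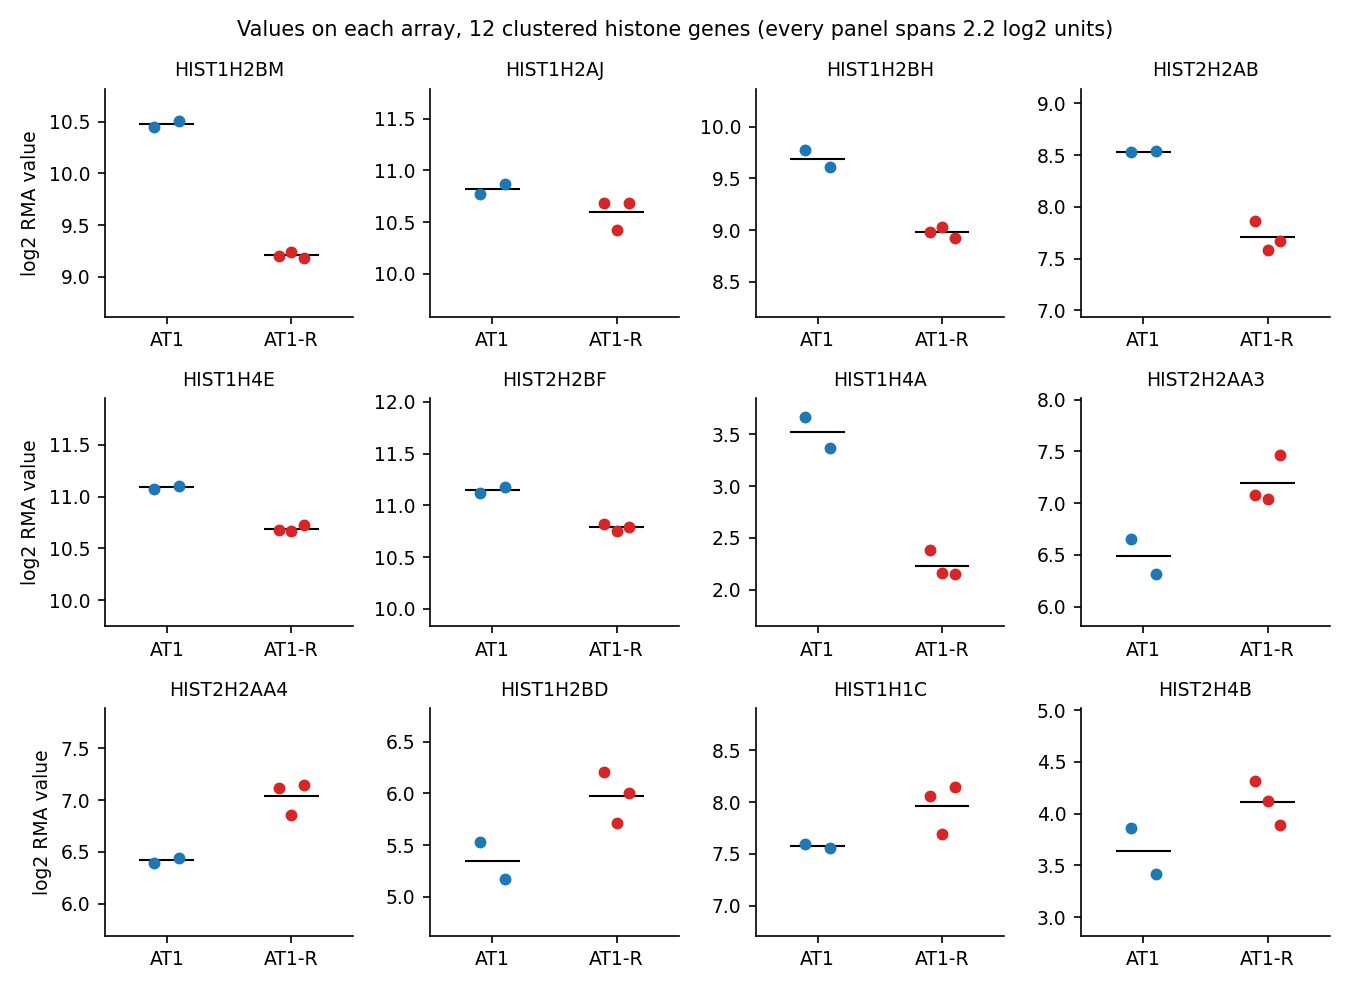
Log2 RMA value on each array for 12 clustered histone genes in MCF10.AT1 (A01 and A02, blue) and MCF10.AT1-R (B02, B03 and B04, red), with bars at the means. Panels differ in where the vertical axis starts but all span 2.2 log2 units, so HIST1H2BM shows a wider step down than HIST2H2AB or HIST1H2BH; the resistant arrays of HIST1H4A lie within the negative controls.

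The median was below 0 in all 5 classes. In class H1, whose proteins bind the linker DNA between nucleosomes, 5 of 6 genes were lower with a median of -0.26. HIST1H1B read 9.36 and 9.50 in MCF10.AT1 and 9.25, 8.97 and 9.22 in MCF10.AT1-R, a difference of -0.28, and HIST1H1E had a difference of -0.32; neither overlapped between the lines. In class H2A 12 of 16 were lower with a median of -0.27, and in class H2B 20 of 22 with a median of -0.36. H2A and H2B held the most genes that passed with the trend, 4 each counting both directions, of 11 and 19 tested. For H4 it was 2 of 10 tested, so the counts also follow the size of the classes.

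In class H3 all 13 genes were lower with a median of -0.30, but the lines overlapped for 8 of them and none passed in either limma fit. HIST1H3B read 6.93 and 7.06 against 6.54, 6.49 and 6.53, a difference of -0.47, and HIST1H3F read 6.51 and 6.68 against 6.10, 5.88 and 6.16, a difference of -0.55. Both kept the arrays of the lines apart. In class H4 12 of 15 were lower with a median of -0.34. HIST1H4D, one of these, read 6.90 and 7.08 against 6.57, 6.65 and 6.31, a difference of -0.48, and HIST1H4C had a difference of -0.18, again with no overlap.

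The 6 members that RefSeq calls pseudogenes were all lower, by a median of -0.33. HIST2H2BB read 11.07 and 11.29 in MCF10.AT1 and 10.78, 10.87 and 10.74 in MCF10.AT1-R, a difference of -0.38 that passed in limma only with the trend, at an adjusted p of 2.9e-08. HIST2H3DP1 had a difference of -0.16 and its lines overlapped. Because histone genes of a class are nearly identical in sequence, probes of one may also read another. Which probes are shared was not tested, and the values of single members are uncertain to that extent. For the same reason the counts of lower genes, over the 72 and within a class, may not rest on separate measurements. Of the 4 members with more than 1 probe set, HIST1H4C and HIST2H3A were lower on the other probe set too, by -0.56 and -0.18, and that of HIST1H2BE lay within the negative controls.

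The 37 members outside the naming rule ran from -0.55 for HIST1H2BE, an H2B gene, to 0.23 for HIST1H4G. As the rule had taken out the widest differences in both directions, the counts among these 37 are no support for a direction. HIST1H2AL, an H2A gene and the single one of them that passed with the trend, read 9.25 and 9.30 in MCF10.AT1 and 9.0, 8.87 and 8.84 in MCF10.AT1-R, a difference of -0.37 with an adjusted p of 0.82 in limma and 0.017 with the trend. HIST1H2AE, another H2A gene, read 7.09 and 7.16 against 6.56, 6.68 and 6.56, a difference of -0.52 that was far wider than the scatter of either line. HIST1H1A, an H1 gene, sat at the other end with a difference of -0.01 and overlapping arrays. These genes were chosen for description after their values were seen.

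Along the chromosomes the lower values were spread over every cluster. In HIST1 47 of 52 genes were lower with a median of -0.34, in HIST2 10 of 15 with a median of -0.21 and in HIST3 all 4 with a median of -0.39, and HIST4H4 had a difference of -0.49 within the negative controls. When the genes were split wherever neighbours lay more than 100 kb apart, the large block of HIST1 from HIST1H1A to HIST1H4H held 31 genes, 26 of them lower, with a median of -0.32. The block from HIST1H2BJ to HIST1H2AH held 5 genes, all lower, with a median of -0.35. In the block from HIST1H2BL to HIST1H2BO, which holds HIST1H2BM, all 14 were lower with a median of -0.36. The main HIST2 block, from HIST2H2BF to HIST2H2AB, was more mixed, with 7 of 12 lower and a median of -0.17.

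**Figure D3:**
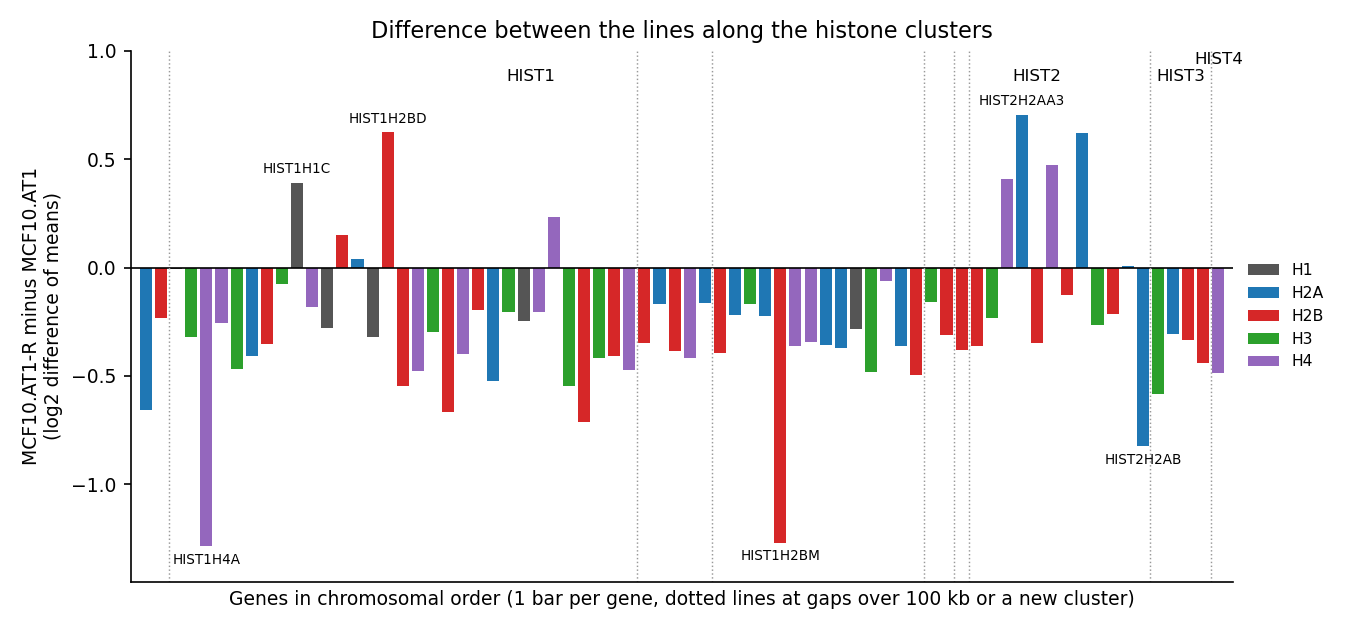
Difference between the lines (MCF10.AT1-R minus MCF10.AT1, log2) for the 72 genes in chromosomal order within HIST1, HIST2, HIST3 and HIST4, 1 bar per gene, coloured by class. Bars above 0 are the 10 higher genes, of which 5 lie in HIST1 and 5 in HIST2.

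Many H2A and H2B genes stand head to head and share the stretch between their starts. There were 10 head-to-head pairs of members, with starts 215 to 248 bases apart, of which 9 joined an H2A and an H2B gene and 1 joined HIST1H3D, an H3 gene, and HIST1H2BF. Both genes were lower in 8 of the 10 and in 7 of the 9. As 62 of the 72 members were lower, most pairs of any 2 members would be lower together, so these counts do not show a link between partners. The gap between unpaired members was not computed. In the pair of HIST1H2BC and HIST1H2AC both were higher, by 0.15 and 0.04, and in that of HIST2H2BE and HIST2H2AC the differences were -0.21 and 0.01. The gap between partners had a median of 0.20. It was widest, at 1.05, for HIST1H2AJ and HIST1H2BM, whose shared stretch is the HIST1H2BM sequence printed above, and the next widest among the 8 pairs above the negative controls on all 5 arrays was 0.37 for HIST1H3D and HIST1H2BF. Among H2A and H2B genes the 24 with the octamer had a median difference of -0.37, with 21 lower, and the 8 without it a median of -0.26, with 5 lower. This difference between them is a description and was not tested. The genes are not independent, because partners share a window and the 8 include HIST2H2AA3 and HIST2H2AA4, whose windows are identical.

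Most of the higher genes lay in 2 places. The first was the duplicated part of HIST2, where HIST2H2AA3 and HIST2H2AA4, which encode H2A, and HIST2H4A and HIST2H4B, which encode H4, are copies of each other with upstream windows that were 100% identical in each pair. HIST2H2AA3 read 6.66 and 6.32 in MCF10.AT1 and 7.08, 7.04 and 7.46 in MCF10.AT1-R. HIST2H2AA4 read 6.40 and 6.44 against 7.11, 6.86 and 7.14. All resistant arrays lay above both others for each copy, with differences of 0.71 and 0.62. Their adjusted p values in limma were 0.45 and 0.59, and 0.0056 and 0.034 with the trend.

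HIST2H4A and HIST2H4B had differences of 0.41 and 0.47. HIST2H4B read 3.86 and 3.42 against 4.32, 4.12 and 3.89, so its lines were just apart, whereas those of HIST2H4A overlapped. Neither passed in limma, with adjusted p values of 0.81 and 0.77, nor with the trend. Since the copies are so alike and shared probes were not examined, the genes of a pair may not be separate measurements. The pseudogenes HIST2H2BD and HIST2H2BC, which lie between the copies, were lower, by -0.35 and -0.13.

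The second place was HIST1, where HIST1H1C, HIST1H2BC, HIST1H2AC and HIST1H2BD lie in the same block and are all on the list of 9 genes known to give polyadenylated transcripts as well. HIST1H2BD, an H2B gene, read 5.53 and 5.17 in MCF10.AT1 and 6.20, 5.72 and 6.0 in MCF10.AT1-R, a difference of 0.62 with no overlap and an adjusted p of 0.59 in limma. HIST1H1C, the H1.2 gene, read 7.59 and 7.56 against 8.06, 7.69 and 8.15, a difference of 0.39 with an adjusted p of 0.82 in limma. Its other, dimmer probe set went the opposite way, with a difference of -0.33. The fifth, HIST1H4G, lay within the negative controls on every array at a difference of 0.23.

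Over the whole list of 9 polyadenylated genes 4 were higher and 5 lower, with a median of -0.20, beside 57 of 63 lower and a median of -0.33 for the other members. The lower ones were HIST1H2BG, HIST2H2BE, HIST1H2BJ, HIST1H2BK and HIST1H4H, with differences of -0.20, -0.21, -0.35, -0.39 and -0.47. None of the 7 that were tested passed in limma with or without the trend, and 1 was at an unadjusted p under 0.05. The contrast between the lists was not tested.

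The testis genes HIST1H1T, HIST1H2AA, HIST1H2BA and HIST3H3 had differences of -0.28, -0.66, -0.23 and -0.58. None of the 4 lay above the negative controls on all 5 arrays, and HIST3H3 did so on a single array. HIST1H1T had the widest spread of them, with an SD of 1.04 over A01 and A02, and without A01 its difference turned to 0.46. No fold is given for these genes, since both lines were at or near the controls.

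The genes that drive transcription of the clusters were mostly lower. Of 9 such genes 8 were lower, with a median of -0.12, and none of the 5 that were tested passed in limma. Their mean log2 value was 5.50 and 5.38 on A01 and A02, and 5.33, 5.01 and 5.29 on B02, B03 and B04. The part of these genes in the histone values was not tested. Of these 5, 2 were at an unadjusted p under 0.05, where 8.26% of all tested probe sets were. NPAT, the coactivator of the clusters, read 4.73 and 4.70 in MCF10.AT1 and 4.07, 3.77 and 4.41 in MCF10.AT1-R, a difference of -0.63 with no overlap and an adjusted p of 0.57 in limma. CCNE2, a cyclin E gene named here after its value was seen, had a difference of -0.61 with no overlap. HINFP, the factor of the H4 site, CASP8AP2, a part of the histone locus body, and GON4L had differences of -0.02, -0.47 and 0.10, all with overlap.

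Genes for making the 3′ end of histone mRNA, listed together with the SLBP partner MIF4GD, which does not make it, were mixed in direction. Of 10 measured 7 were higher, with a median of 0.04, and of the 4 that were tested none passed. For 3 of the 10, with MCF10.AT1 arrays all above the resistant ones, the differences were -0.35 for ZNF473, -0.24 for CPSF3 and -0.40 for MIF4GD, the last within the negative controls on all 5 arrays. For 2, SLBP and CSTF2, every resistant array was above. SLBP, which binds the stem-loop, read 6.25 and 6.28 against 6.37, 6.40 and 6.47, a difference of 0.15 with no overlap, and varied too little to be tested. LSM10 and LSM11, both of the U7 particle, with which ZNF473 works, had differences of 0.09 and 0.03. Of 6 genes of histone mRNA decay 5 were lower, with a median of -0.16, and none of the 3 tested passed; ERI1, the nuclease that trims the stem-loop, had a difference of -0.47, UPF1 0.04, ZCCHC6 -0.06 and ZCCHC11 -0.12.

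The histone chaperones, which carry new histones to DNA, gave 4 of 6 measured genes lower and a median of -0.31, and none of the 5 tested passed at FDR 5%. NASP, ASF1A, ASF1B and CHAF1A had differences of 0.10, -0.35, -0.38 and -0.27, and the lines overlapped for each. Histone variants made outside replication from single genes gave 9 of 11 lower and a median of -0.11, and of the 5 tested none passed at FDR 5% and 1 was at an unadjusted p under 0.05. H1F0, H1FX, H2AFX and H2AFZ had differences of -0.02, -0.19, -0.01 and -0.18. H2AFY, the macroH2A gene, was chosen after its values were seen: it read 8.96 and 9.07 against 9.62, 9.60 and 9.68, a difference of 0.62 with an adjusted p of 0.59 in limma and 1.2e-08 with the trend. H2AFV, a gene of the H2A.Z type chosen in the same way, read 9.09 and 8.93 against 8.55, 8.68 and 8.71, a difference of -0.36 with an adjusted p of 0.83 in limma and 0.046 with the trend.

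Most of the cell cycle genes measured were lower as well. Of 21 genes of S phase 16 were lower with a median of -0.22, and none of the 8 tested passed in limma with or without the trend or was at an unadjusted p under 0.05. PCNA, MCM2, MCM3 and MCM4 had differences of -0.14, 0.08, -0.39 and -0.39. All 11 genes of mitosis were lower, with a median of -0.41. Of the 7 tested 4 fell with the trend, where 0.981% of tested probe sets fell, and 1 without it, where 0.447% did. This was CENPF, a kinetochore gene, which read 6.82 and 6.67 against 5.63, 5.42 and 5.73. CENPF fell by 1.15 on the log2 scale, with an adjusted p of 0.023 in limma. MKI67, TOP2A, CCNB1 and CCNB2 had differences of -0.30, -0.67, -0.13 and -0.29, with no overlap for any. All resistant arrays lay below both others for 9 of the 11, against 11.1% of all transcript probe sets and 18.9% of those above the median level of the histone genes. The mean log2 value of the S phase genes was 6.96 on both MCF10.AT1 arrays and between 6.77 and 6.85 on the resistant arrays, and that of the mitosis genes was 7.94 and 7.89 against 7.36 to 7.55. The part of the cell cycle in the histone values was not tested.

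Array A03, the MCF10.AT1 array left out of the comparison, split the histone genes by their gene type. The mean log2 value over the 72 genes was 3.83 on A03. It lay below all 5 other arrays for 59 of the 66 coding genes, with a median of -2.32 against the mean of A01 and A02. All 6 pseudogene members lay above all 5 others on A03, by 0.27 to 0.97 against A01 and A02. Over all transcript probe sets A03 lay below the others for 15.6% and above for 44.0%, and among those above the median level of the histone genes for 55.4% and 41.6%. HIST1H2BM read 6.24 on A03, far below both lines, and HIST2H2BB, the pseudogene, read 11.45.

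**Figure D4:**
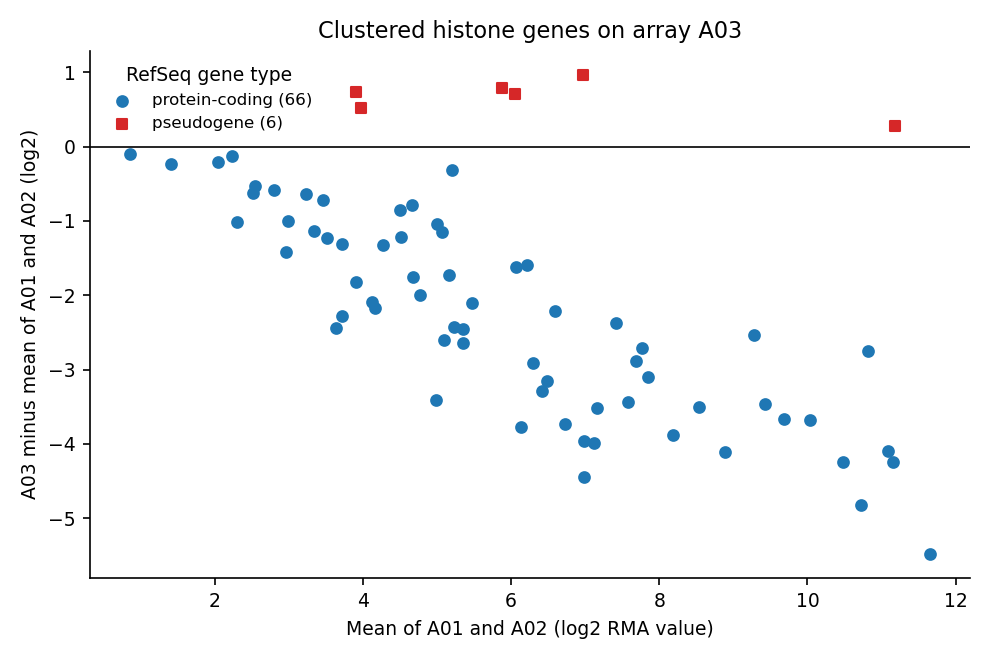
A03 minus the mean of A01 and A02 (log2, vertical) against that mean (log2 RMA value, horizontal) for the 66 coding (blue circles) and 6 pseudogene (red squares) members. All coding genes lie below 0, by -0.10 to -5.48, and all pseudogene members above it.

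When A03 was counted as MCF10.AT1, the median difference over the 72 genes became 0.36 and no histone gene passed in limma. HIST1H2BM then had a difference of 0.14. The direction of the set between the lines therefore rests on the 5 other arrays.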

How the data were processed

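Total RNA of MCF10.AT1 and MCF10.AT1-R, 3 samples each, was hybridised to Clariom D arrays. The authors made the deposited log2 values by RMA with the affy and oligo packages. The table has 135750 transcript probe sets and 2995 control probe sets, of which 612 are negative controls. Its columns were assigned to the lines by the study's plot of principal components, which marks the A arrays as sensitive and the B arrays as resistant, and they carry no replicate number from the labels. The genome build of the array annotation is not given in the sources used here.

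For each gene the probe set with the highest mean over A01, A02, B02, B03 and B04 was used. Probe sets were tested with limma 3.58.1 in R 4.3.3 (lmFit and eBayes) on these 5 arrays. The study removed low and invariant genes before its limma test, but its limits are not given in the sources used here; the limits used were a mean above the median of all, 1.88, and an SD outside the lowest 25%, up to 0.18. P-values were adjusted over 51457 probe sets by Benjamini-Hochberg. A probe set was within the negative controls on an array when it was at or below their 95th percentile there. The number of arrays limits the precision. On simulated data of the same size, 85.1% of 4-fold and 0% of 2-fold changes were recovered over 50475 probe sets, and 8.70% of calls were false. The simulation changed fewer probe sets than the 620 that passed in the data, all taken from those above the low-expression limit. Its Benjamini-Hochberg limit was thus not that of the data, where differences down to 1.07 passed, and its rates are not those of the real test.

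Named genes were those past FDR 5%, the 3 with the highest mean in each class, the 6 largest differences in each direction, the polyadenylated and testis lists, and from the other lists the genes past FDR 5% and the first 4. Of the chaperones HIRA was not matched. Windows, gene types and gene order came from RefSeq on GRCh38.p14, in which all 72 symbols were found. The members and lists were chosen with earlier results of these data known. Alternatives were the trend option, other filters, array weights, renormalization, centring, averaging of probe sets, a floor, A03 added and each array left out.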

Additional observations from a re-analysis of the deposited data

How the results depend on the processing

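With A03 added the median difference of the 72 genes turned from -0.32 to 0.36 and the 2 falls were lost, leaving 0. It reversed HIST1H1B to 0.87, HIST1H1E to 0.71, HIST1H2BA to 0.11, HIST1H2BF to 0.30, HIST1H2BH to 0.51, HIST1H2BJ to 0.62, HIST1H2BK to 0.40, HIST1H2BM to 0.14, HIST1H3B to 1.01, HIST1H3F to 0.19, HIST1H4D to 0.84, HIST1H4E to 0.97, HIST1H4H to 0.79, HIST2H2AB to 0.34, HIST2H2BE to 0.59 and HIST2H2BF to 1.05. The count of falls was 0 with no filter, 1 with only low expression filtered, 8 with the trend and 9 with both of these, and the count of rises went from 0 to 2 with the trend under either filter. With each array left out in turn, falls ranged from 0 to 2, with 0 without A01 and without A02. The median then ranged from -0.35 to -0.27. HIST1H1T ranged from -1.02 to 0.46, the last without A01, and HIST1H2AC from -0.10, without B04, to 0.16. With the floor HIST1H4A, at -0.53, no longer passed and HIST1H4K did. Over all probe sets 620 passed, against 177 with no filter or with the floor, 182 with only low expression filtered, 1086 with the trend added to it, 1377 with the trend, 44 with A03, 315 without A01 and 280 without A02. The cause of these changes was not tested. Array weights, renormalization without A03, centring, averaging and FDR 10% left 2 falls, and over the tested genes the median of -0.36 stayed between -0.37 and -0.35 under the first 4 and the floor. No paired analysis was possible because the array columns carry no replicate number.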
